A study of Rattus norvegicus with 36 samples.

Results

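Kidney gene expression 2 h after ischemia was compared with expression 2 h after mercuric chloride in 7 rats, which supplied 7 of the 36 arrays of a study of early acute kidney injury. Samples were chosen by their titles, which number the ischemia rats 1 to 4 and the mercuric chloride rats 1 to 3, with 1 array for each rat. In the 4 ischemia rats the blood supply of both kidneys was interrupted for 40 min and the kidneys were taken after 2 h of reperfusion. The 3 mercuric chloride rats received 4 mg/kg under the skin and were studied 2 h later. Normal rats 1 to 3, which were untreated and gave 4 arrays, stand beside them as the baseline. A further group of 3 rats had the same 40 min of ischemia with 50 µg of alpha melanocyte stimulating hormone (aMSH), an anti-inflammatory peptide, given into a vein, and is used below for its levels and as an alternative ischemia group. All rats were male and 6 to 8 weeks old, and total RNA came from a piece of each kidney. The labels give no strain. Sham surgery was studied only at 8 h, so the effects of surgery and of ischemia cannot be told apart in the ischemia rats. The 2 h were counted from reperfusion in the ischemia rats and from the injection in the mercuric chloride rats. The labels place the 2 h ischemia kidneys before the entry of leukocytes. The labels tie no array to an array lot, although the study used lots of 24 and 12 arrays. The arrays of normal rats 11 and 12, which were also untreated, lacked 47 probes that normal rats 1 to 3 all had. In the arrays of the 2 h ischemia, 2 h mercuric chloride and aMSH rats 0 of these 47 probes were missing. Whether the 47 probes mark a lot was not tested.

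Ischemia stops the supply of oxygen to tubule cells, which then run short of ATP, and reperfusion returns oxygen and with it a burst of reactive oxygen species. Mercuric ions bind thiols, above all those of glutathione and of protein cysteines, and enter the cells of the proximal tubule, the segment that both injuries damage most. Cells answer injury through several known pathways. MAP kinases switch on immediate early genes and then their own phosphatases, the transcription factor Nrf2 is released when the cysteines of its inhibitor Keap1 are modified and then induces antioxidant genes, and the integrated stress response slows translation and induces genes of amino acid supply through Atf4.

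Levels below are multiples of the array median, and a value of 0.1 is a floor. A difference is on the log2 scale, ischemia minus mercuric chloride, with its SE. It was counted as passed at a Benjamini-Hochberg adjusted p under 0.05 in limma. Defining markers of kidney tubules were bright. Lrp2 (megalin), the endocytic receptor of the proximal tubule, stood at 41.3 to 55.7 in ischemia rats and 47.6 to 55.4 in mercuric chloride rats, and Umod (uromodulin), of the loop of Henle, at 37.8 to 55.9 in ischemia rats and 56.4 to 71.7 in mercuric chloride rats. The median SD between rats on the log2 scale was 0.153 in the ischemia rats, 0.119 in the mercuric chloride rats and 0.198 in the normal rats. The labels do not say whether RNA of the rats was prepared together, so p-values measure a spread between rats only. In the main fit that spread was pooled over all groups of the study, so an SE can differ from the SDs of the compared groups. For Rufy1 the SDs were 0.12 in ischemia rats and 0.00 in mercuric chloride rats, and the SE was 0.93. For Glycam1 they were 1.77 and 0.24, and the SE was 0.52.

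The kidneys of the ischemia rats held more mRNA for early transcription factors, MAP kinase feedback genes, cytokines, the vasoactive peptides Edn1 and Adm, and matricellular proteins than those of the mercuric chloride rats. The kidneys of the mercuric chloride rats held more mRNA for heme oxygenase, the glutathione-degrading enzyme Chac1 and some efflux transporters. Of 9467 probes tested, 1427 (15.1%) passed, with 766 (8.09%) higher and 661 (6.98%) lower in the ischemia rats. The balance of both directions turned with quantile normalization (743 higher and 885 lower) and with a floor of 0.5 (597 higher and 608 lower). At a size of at least 2-fold the counts were 225 higher (2.38%) and 62 lower (0.655%), and at 4-fold 42 higher and 3 lower. The ranges of both groups did not overlap for 3152 probes (33.3%), among them 1388 of the 1427 that passed. With 1 probe for each of 6189 named genes, 888 passed (14.3%), 567 of them higher (9.16%) and 321 lower (5.19%), and the median difference was 0.04. Without mercuric chloride rat 3, 438 probes were lower. The normal rats, at the same threshold, differed from the ischemia rats at 1395 of 9468 probes (14.7%) and from the mercuric chloride rats at 727 of 9466 (7.68%). Both of these comparisons use the same normal rats, and each shares its treated rats with the direct comparison, so they are given side by side with no count of genes in common. The plot of gene lists gives the share of each list that passed, beside 9.16% higher and 5.19% lower over all genes. Some genes belong to more than 1 list, so the lists are not independent of each other.

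**Figure D1:**
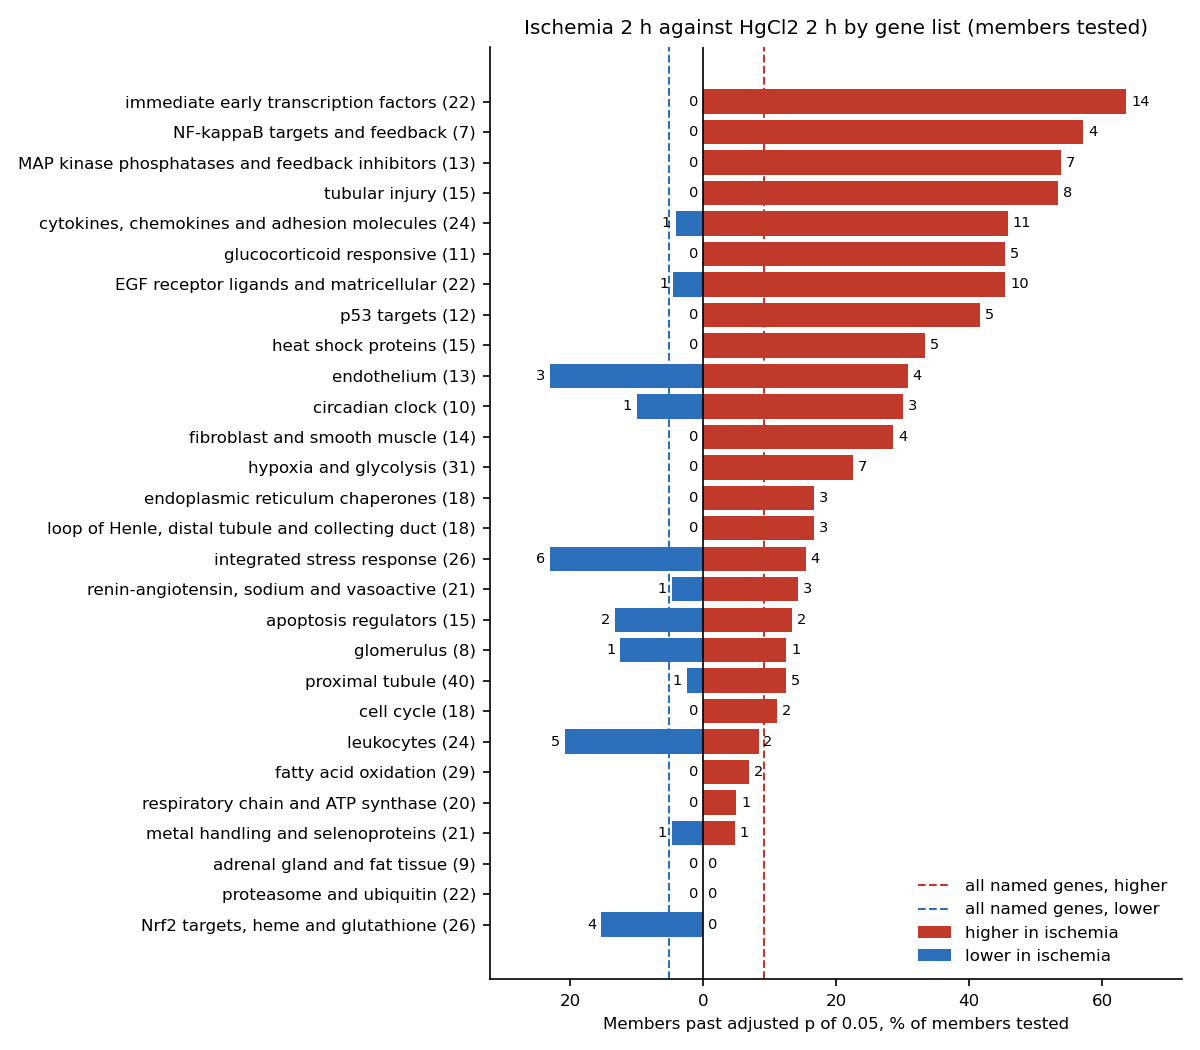
Share of tested members of each gene list that was higher (red, right) or lower (blue, left) in the 4 ischemia rats than in the 3 mercuric chloride rats, in percent of members tested, at a limma adjusted p of 0.05; the number of members tested stands in brackets and the number that passed at the bar. The dashed lines mark the shares over all 6189 genes, 9.16% higher and 5.19% lower. Immediate early factors (14 of 22) have the longest bar to the right, and Nrf2 targets have 4 of 26 to the left and 0 to the right.

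Immediate early transcription factors, which cells transcribe within minutes of a stimulus with no need for new protein, were the clearest group. Of 22 tested members 14 were higher in ischemia rats and 0 lower, against 9.16% and 5.19% of all genes. The median difference of the 22 was 1.30, against 0.04 over all genes. Fos, a subunit of the AP-1 factor, stood at 81.8, 75.6, 75.6 and 85.2 in the ischemia rats, against 3.64, 2.07 and 1.82 in the mercuric chloride rats and 0.879, 1.31 and 1.2 in the normal rats. Every ischemia rat was thus far above every mercuric chloride rat, a difference of 5.05 ± 0.66 (33.2-fold, adjusted p 5.62e-06, limma). All 3 Fos probes passed, with differences of 4.66 to 5.38. Klf4, a zinc finger factor of epithelia, stood at 8.05, 6.11, 5.66 and 7.84 in ischemia rats, against 0.67, 0.644 and 0.529 in mercuric chloride rats and 0.686, 0.74 and 0.582 in normal rats. Mercuric chloride and normal rats overlapped in Klf4 and the ischemia rats stood apart, by 3.48 ± 0.19 (11.2-fold, adjusted p 3.55e-12). Junb, another AP-1 subunit, had 9.68, 8.33, 11.5 and 9.11 in ischemia rats, against 2.21, 1.83 and 1.37 in mercuric chloride rats and 0.728, 0.872 and 0.998 in normal rats, with no overlap of any pair of groups. Its difference was 2.44 ± 0.35 (5.43-fold, adjusted p 2.24e-05). The cytoskeletal early gene Arc and the zinc finger factor Egr2 differed by 2.68 ± 0.27 and 2.64 ± 0.59, again with no overlap. At a limma adjusted p under 0.05, 17 of the 22 rose in ischemia rats over normal rats (background 7.36% of probes) and 7 rose in mercuric chloride rats (background 3.07%).

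Egr1, Atf3 and Myc rose over normal rats in both injuries. Egr1, a growth-factor-induced zinc finger factor, stood at 8.7, 9.52, 9.75 and 5.97 in ischemia rats, against 3.74, 1.8 and 1.94 in mercuric chloride rats and 0.326, 0.297 and 0.277 in normal rats. It rose by 4.80 in ischemia and by 2.98 in mercuric chloride rats over normal rats, and the direct difference was 1.82 ± 0.56 (adjusted p 0.0278, limma). That call was lost without ischemia rat 1, 2 or 3 or mercuric chloride rat 2 or 3 (adjusted p 0.0536 to 0.108). The difference stayed at 1.63 to 1.80 in these fits. Jun, the partner of Fos, rose by 1.79 in ischemia rats over normal rats, and its change of 0.51 in mercuric chloride rats did not pass (adjusted p 0.472). Between the injuries Jun differed by 1.29 ± 0.35 (adjusted p 0.0114), which became 0.0548 without mercuric chloride rat 2 and 0.0583 without rat 3. Atf3, a stress-induced repressor and activator of the ATF/CREB family, stood at 48.2, 45.3, 34.9 and 44 in ischemia rats, against 36, 36.2 and 26.9 in mercuric chloride rats and 2.03, 2.85 and 2.34 in normal rats. Both injured groups overlapped and lay far above the normal rats, and the difference between them was 0.39 ± 0.44 (95% interval -0.53 to 1.30, adjusted p 0.668). A second Atf3 probe stood at 29.7, 28.1, 30.2 and 42 in ischemia rats, against 18, 19.7 and 16.6 in mercuric chloride rats and 0.261, 0.362 and 0.398 in normal rats. On that probe the injuries did not overlap, and the difference of 0.83 ± 0.69 did not pass (adjusted p 0.509). Myc, a growth-promoting factor, stood at 3.73, 3.11, 1.82 and 2.15 in ischemia rats, against 1.47, 1.61 and 1.5 in mercuric chloride rats and 0.142, 0.347 and 0.43 in normal rats. Its groups did not overlap, but the difference of 0.77 ± 0.48 (95% interval -0.23 to 1.76) did not pass (adjusted p 0.342). It passed in limma with the 7 rats alone (0.77, adjusted p 0.0439) and with array weights (0.88, adjusted p 0.0222).

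**Figure D2:**
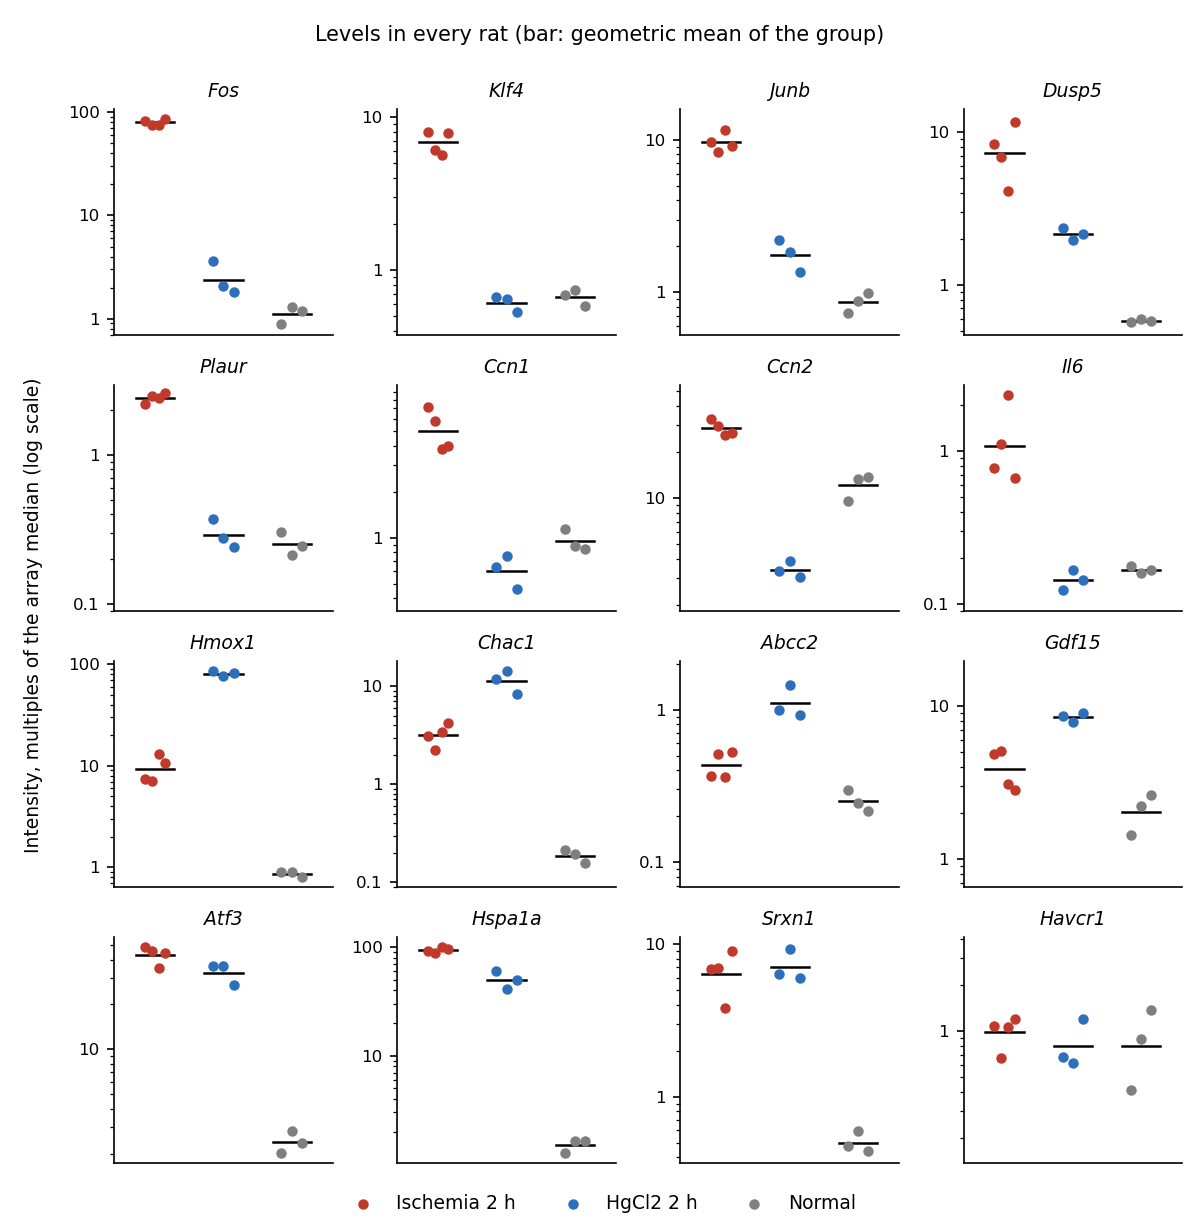
Levels of 16 genes in every rat, in multiples of the array median on a log scale, with ischemia rats (red, n = 4), mercuric chloride rats (blue, n = 3) and normal rats (grey, n = 3) from left to right in each panel; each point is a rat and the bar is the geometric mean of the group. Fos (75.6 to 85.2 in ischemia rats, 1.82 to 3.64 in mercuric chloride rats) and Klf4 separate the injuries one way, Hmox1 and Chac1 the other, and Atf3, Srxn1 and Havcr1 overlap between them.

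The genes that damp MAP kinase signalling followed the same side. Of 13 tested members of the list of MAP kinase phosphatases and feedback inhibitors, 7 were higher in ischemia rats and 0 lower (median difference 0.48). Over all genes the shares were 9.16% and 5.19%. Dusp5, a nuclear phosphatase of ERK, stood at 8.34, 6.87, 4.12 and 11.7 in ischemia rats, against 2.36, 1.95 and 2.15 in mercuric chloride rats and 0.569, 0.597 and 0.576 in normal rats. It was above normal in both injuries and did not overlap between them, with a difference of 1.76 ± 0.29 (3.38-fold, adjusted p 0.000116, limma). Zfp36 (tristetraprolin), which speeds the decay of cytokine mRNAs, stood at 20, 19.4, 19.5 and 23.7 in ischemia rats, against 8.5, 5.79 and 5.85 in mercuric chloride rats and 4.15, 5.47 and 4.66 in normal rats. Ischemia rats stood apart and the other groups lay close together, with a difference between the injuries of 1.64 ± 0.30 (3.12-fold, adjusted p 0.000347). Dusp6, the cytoplasmic ERK phosphatase, and Rgs2, an inhibitor of Gq signalling, both differed by 1.47 (SE 0.27 and 0.23), and Dusp14 by 0.86 ± 0.15.

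Serum response factor binds the CArG box in the promoters of many early genes, and the promoters of Dusp5 and Zfp36 are shown because both hold this motif and both separated the injuries. The 250 bases before the annotated start of each gene were taken from RefSeq on the rat build GRCr8, Dusp5 from chr1:262543524-262543773 on the plus strand and Zfp36 from chr1:92799109-92799358 on the minus strand. Each reads 5′ to 3′ in the direction of the gene, and the capitals mark the CArG boxes, searched as CC, then 6 bases that are each A or T, then GG, on both strands. Dusp5 holds 2 next to each other, 82 to 73 and 72 to 63 bases before the start, and Zfp36 holds 1, 32 to 23 bases before it.
Dusp5: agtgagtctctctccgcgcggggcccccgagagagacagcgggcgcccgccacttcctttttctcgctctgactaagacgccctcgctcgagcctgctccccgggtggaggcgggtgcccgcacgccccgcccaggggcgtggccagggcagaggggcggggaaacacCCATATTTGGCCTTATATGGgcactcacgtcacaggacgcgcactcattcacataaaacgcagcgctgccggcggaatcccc
Zfp36: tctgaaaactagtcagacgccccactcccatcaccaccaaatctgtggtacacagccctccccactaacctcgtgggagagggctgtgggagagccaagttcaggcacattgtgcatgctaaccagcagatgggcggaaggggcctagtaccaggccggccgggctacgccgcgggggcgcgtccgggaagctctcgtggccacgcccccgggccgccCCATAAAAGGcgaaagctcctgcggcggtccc
A CArG box lay in 1.5% of 33469 promoters of this length and in 1.22% of the promoters of 5064 tested genes. It lay in 6 of the 132 matched genes that were at least 2-fold higher in ischemia rats (4.55%), among them Egr1 and Egr2, and in 1 of the 26 that were at least 2-fold lower. A match describes these letters and does not show that a factor binds there.

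A few genes of the Nrf2 pathway, of heme and of glutathione were lower in ischemia rats, and most did not pass. Of 26 tested members, 0 were higher and 4 lower in ischemia rats, against 9.16% and 5.19% of all genes (median difference -0.20; 9 passed with rats of the same number as a block), and these are the efflux pumps Abcc2 and Abcc4, the quinone reductase Nqo1 and heme oxygenase. Hmox1, which breaks heme down to biliverdin, iron and carbon monoxide, stood at 7.44, 7.1, 13.2 and 10.6 in ischemia rats, against 84.9, 76.3 and 81.9 in mercuric chloride rats and 0.904, 0.894 and 0.814 in normal rats. The 3 groups were fully apart. Hmox1 rose by 3.41 in ischemia rats and by 6.54 in mercuric chloride rats over normal rats, and the direct difference was -3.13 ± 0.28 (8.73-fold lower in ischemia, adjusted p 1.2e-08, limma). Abcc2, an apical pump for glutathione conjugates, stood at 0.368, 0.513, 0.362 and 0.524 in ischemia rats, against 0.995, 1.45 and 0.919 in mercuric chloride rats and 0.296, 0.246 and 0.218 in normal rats, with no overlap of any pair of groups. It differed by -1.34 ± 0.31 (adjusted p 0.00375) between the injuries and rose by 2.13 in mercuric chloride rats over normal rats. Abcc4, a pump for organic anions, differed by -1.12 ± 0.24 (adjusted p 0.00208).

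The list was not uniform. Srxn1 (sulfiredoxin), which restores oxidised peroxiredoxins and is a known Nrf2 target, stood at 6.89, 6.9, 3.8 and 8.96 in ischemia rats, against 6.38, 9.25 and 5.97 in mercuric chloride rats and 0.474, 0.592 and 0.44 in normal rats. Both injured groups overlapped well above the normal rats. Their difference was -0.15 ± 0.27 (95% interval -0.72 to 0.41, adjusted p 0.815), and it was 0.09 without ischemia rat 3 and 0.04 without mercuric chloride rat 2. Txnrd1, the thioredoxin reductase, stood at 0.501, 0.373, 0.492 and 0.555 in ischemia rats, against 0.723, 0.719 and 0.854 in mercuric chloride rats and 0.409, 0.259 and 0.268 in normal rats. The injured groups did not overlap, and the difference of -0.68 ± 0.32 did not pass (adjusted p 0.167). In limma fitted to these 3 groups alone it was -0.68 and passed (adjusted p 0.0261). With rats of the same number as a block as well it was -0.76 (adjusted p 0.0209). Fth1, the ferritin heavy chain, varied more among the ischemia rats than between groups, with 3.67, 2.06, 49 and 37.3 in ischemia rats, against 43.7, 65 and 57.2 in mercuric chloride rats and 23.2, 39.1 and 48.2 in normal rats. Ischemia rats 1 and 2 were low and rats 3 and 4 lay among the other groups. The difference of -2.33 ± 1.42 did not pass (adjusted p 0.318), while the block by rat number gave -2.93 (adjusted p 0.0474). Among 21 tested genes of metal handling and selenoproteins, 1 was higher and 1 lower, against 9.16% and 5.19% of all genes. Without mercuric chloride rat 2, 1 passed. The lower one was the iron exporter Slc40a1 (ferroportin), at -0.82 ± 0.15 (adjusted p 0.00028), whose second probe gave -0.50 and did not pass (adjusted p 0.141).

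**Figure D3:**
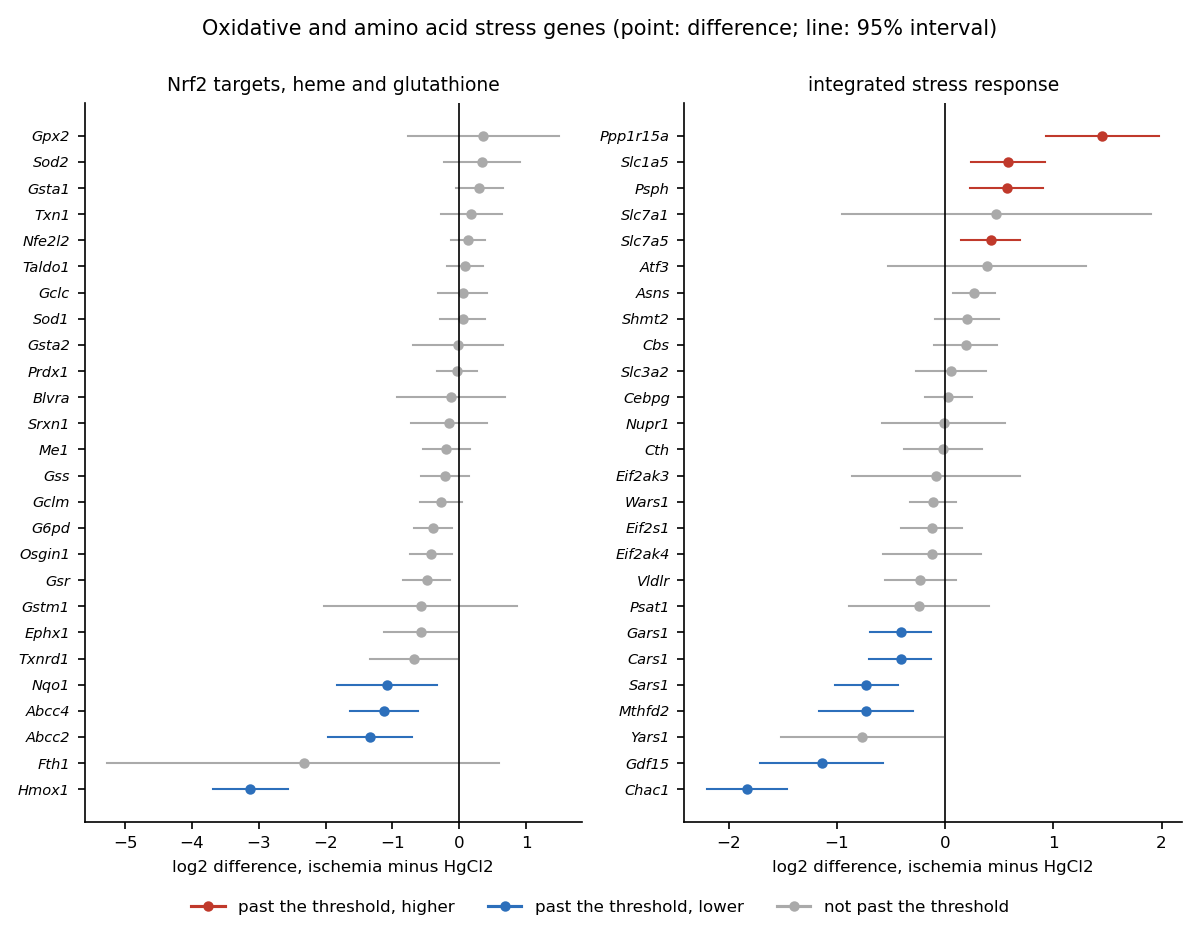
Log2 difference, ischemia minus mercuric chloride, of every tested member of the list of Nrf2, heme and glutathione genes (left panel) and of the integrated stress response list (right panel); points are differences and lines their 95% intervals, red for higher in ischemia rats, blue for lower and grey for not passed at a limma adjusted p of 0.05. Hmox1 lies at -3.13 and Chac1 at -1.83, while Ppp1r15a lies at 1.45.

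The integrated stress response split in both directions. Of 26 tested members, 4 were higher in ischemia rats and 6 lower, against 9.16% and 5.19% of all genes, with a median difference of -0.05. With a rat left out, the count of members that passed was 5 to 8 in place of 10, with 5 without ischemia rat 3 or mercuric chloride rat 1 and 6 without mercuric chloride rat 3. Chac1, which degrades glutathione and is a known Atf4 target, stood at 3.08, 2.26, 3.43 and 4.21 in ischemia rats, against 11.8, 14.4 and 8.37 in mercuric chloride rats and 0.213, 0.194 and 0.158 in normal rats. The 3 groups were apart, with Chac1 up by 4.09 in ischemia and by 5.91 in mercuric chloride rats over normal rats and a direct difference of -1.83 ± 0.18 (3.55-fold lower in ischemia, adjusted p 6.55e-08, limma). Gdf15, a stress cytokine of the TGF-beta family, stood at 4.89, 5.12, 3.12 and 2.83 in ischemia rats, against 8.62, 7.89 and 9.02 in mercuric chloride rats and 1.44, 2.23 and 2.62 in normal rats. Here too the 3 groups were apart, with mercuric chloride rats highest. Gdf15 rose by 0.92 in ischemia rats (adjusted p 0.0233, limma) and by 2.06 in mercuric chloride rats over normal rats. The direct difference was -1.14 ± 0.28 (adjusted p 0.00513). Sars1, which charges serine tRNA, differed by -0.73 ± 0.14 (adjusted p 0.000714) and rose by 0.93 in mercuric chloride rats over normal rats. Mthfd2, the mitochondrial folate enzyme, differed by -0.73 ± 0.21 (adjusted p 0.0183), a call lost without mercuric chloride rat 2 (-0.59, adjusted p 0.112). Ppp1r15a (Gadd34), the phosphatase subunit that reverses eIF2alpha phosphorylation, went the other way. It stood at 2.46, 2.22, 3.5 and 3.34 in ischemia rats, against 0.922, 1.25 and 0.953 in mercuric chloride rats and 0.388, 0.437 and 0.416 in normal rats, so all 3 groups were apart. Its difference was 1.45 ± 0.26 (2.74-fold, adjusted p 0.000246).

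The promoters of Ppp1r15a and Chac1 are shown because both genes belong to this list and moved in opposite directions between the injuries. The 250 bases before each start come from RefSeq on GRCr8, Ppp1r15a from chr1:105139597-105139846 on the minus strand and Chac1 from chr3:126795881-126796130 on the plus strand. Capitals mark the cyclic AMP response element TGACGTCA in Ppp1r15a, 66 to 59 bases before the start, and in Chac1 a match to TGATGCAA, a composite site of C/EBP and ATF factors, which lies on the other strand and so reads TTGCATCA, 167 to 160 bases before the start.
Ppp1r15a: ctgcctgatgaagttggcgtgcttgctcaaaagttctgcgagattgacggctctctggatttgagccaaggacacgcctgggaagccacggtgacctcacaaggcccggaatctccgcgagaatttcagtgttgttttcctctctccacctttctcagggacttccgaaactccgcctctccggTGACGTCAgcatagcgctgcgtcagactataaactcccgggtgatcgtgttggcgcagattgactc
Chac1: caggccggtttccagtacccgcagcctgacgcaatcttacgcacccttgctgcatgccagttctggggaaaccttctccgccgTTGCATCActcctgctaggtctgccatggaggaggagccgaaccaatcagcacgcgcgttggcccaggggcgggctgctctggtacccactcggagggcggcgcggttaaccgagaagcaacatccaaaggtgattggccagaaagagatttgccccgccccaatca
TGACGTCA lay in 1.59% of all 33469 promoters and 2.82% of those of tested genes, in 10 of the 132 genes at least 2-fold higher in ischemia rats (7.58%) and in 0 of the 26 at least 2-fold lower. TGATGCAA, on either strand, lay in 0.693% of all promoters and 0.632% of those of tested genes, in 0 of the 132 and in 1 of the 26, which is Chac1. Neither motif contains the other.

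Some heat shock genes rose over normal rats in each injury, and ischemia rats held more of some of their mRNA. Of 15 tested heat shock genes, 5 were higher in ischemia rats and 0 lower, against 9.16% and 5.19% of all genes (median difference 0.30). Over normal rats, 8 rose in ischemia rats (background 7.36% of probes) and 4 in mercuric chloride rats (background 3.07%). Hspa1a, the inducible Hsp70, stood at 91.4, 88.7, 99.6 and 97 in ischemia rats, against 60.1, 41.2 and 49.5 in mercuric chloride rats and 1.28, 1.63 and 1.64 in normal rats. The groups did not overlap, and the difference of 0.92 ± 0.32 (95% interval 0.25 to 1.59) did not pass (adjusted p 0.0567, limma). In limma fitted to these 3 groups alone it was 0.92 and passed (adjusted p 0.0016). With rats of the same number as a block as well it was 0.91 (adjusted p 0.0108). Cryab, a small heat shock protein, stood at 52.8, 48.6, 54.7 and 42.4 in ischemia rats, against 22.9, 17.1 and 18.6 in mercuric chloride rats and 16.2, 14.8 and 15.8 in normal rats. Ischemia rats stood far above the other groups, which lay close together, with a difference between the injuries of 1.35 ± 0.18 (2.55-fold, adjusted p 7.52e-06). With a rat left out, 3 to 5 heat shock genes passed, the lowest count without mercuric chloride rat 2. Of 18 tested chaperones of the endoplasmic reticulum, 3 were higher and 0 lower, and 5 passed with rats of the same number as a block. Hspa5 (BiP), the main one, stood at 71, 67.8, 77.5 and 79.9 in ischemia rats, against 45.5, 38 and 43.9 in mercuric chloride rats and 21.9, 29.5 and 25.8 in normal rats. All groups were apart, with a difference of 0.80 ± 0.17 (1.74-fold, adjusted p 0.00187). Of 22 tested proteasome and ubiquitin genes, 0 passed in either direction.

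Cytokine and chemokine mRNA was higher after ischemia. Of 24 tested cytokines, chemokines and adhesion molecules, 11 were higher in ischemia rats and 1 lower (median difference 0.65). Over all genes the shares were 9.16% and 5.19%. Il6, an early inflammatory cytokine, stood at 0.775, 1.11, 2.32 and 0.667 in ischemia rats, against 0.122, 0.167 and 0.142 in mercuric chloride rats and 0.175, 0.158 and 0.166 in normal rats. Ischemia rats stood above both other groups, which overlapped, and the difference was 2.91 ± 0.36 (7.53-fold, adjusted p 2.36e-06, limma). Ccl20, which draws dendritic cells and lymphocytes, stood at 2.44, 2.26, 4.54 and 2.64 in ischemia rats, against 0.643, 0.511 and 0.452 in mercuric chloride rats and 0.142, 0.17 and 0.257 in normal rats. The 3 groups were apart, and the 2 Ccl20 probes gave differences of 2.43 and 2.69. Cxcl1, a neutrophil attractant, stood at 1.42, 2.13, 5.15 and 1.52 in ischemia rats, against 0.837, 0.474 and 0.37 in mercuric chloride rats and 0.22, 0.193 and 0.294 in normal rats, with a difference of 2.06 ± 0.44 (4.18-fold, adjusted p 0.00174). Ischemia rat 3 was the highest of its group in Il6, Ccl20 and Cxcl1. Cxcl2, a related attractant, stood at 0.227, 0.376, 0.498 and 0.348 in ischemia rats and at the floor of 0.1 in all 3 mercuric chloride rats, so it was at least 3.49-fold higher (adjusted p 1.88e-06). Selp (P-selectin), an adhesion molecule of activated endothelium, stood at 0.408, 0.336, 1.6 and 0.224 in ischemia rats, against 0.113, 0.1 and 0.1 in mercuric chloride rats and 0.136, 0.1 and 0.1 in normal rats (2.18 ± 0.37, adjusted p 0.00017). With a floor of 0.5, above most of these levels, the list had 5 members that passed in place of 12, Cxcl2 gave -0.00 and Selp 0.42 (adjusted p 0.275).

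Ccl2, the main attractant of monocytes, stood at 3.34, 5.61, 9.47 and 3.26 in ischemia rats, against 2.72, 1.68 and 1.61 in mercuric chloride rats and 0.764, 0.837 and 1.7 in normal rats. Ischemia rat 3 was again highest, and the difference of 1.34 ± 0.60 did not pass (adjusted p 0.148, limma). In limma fitted to these 3 groups alone it was 1.34 and passed (adjusted p 0.0413). With rats of the same number as a block as well it was 1.53 (adjusted p 0.0347). The lower cytokine, named after its values were seen, was Il1b, which starts inflammation through the interleukin-1 receptor. It stood at 0.256, 0.376, 0.556 and 0.342 in ischemia rats, against 0.645, 0.677 and 0.671 in mercuric chloride rats and 0.158, 0.135 and 0.279 in normal rats, so mercuric chloride rats were highest with no overlap. Its difference was -0.85 ± 0.26 (adjusted p 0.0229). The adjusted p was 0.0557 to 0.0864 without ischemia rat 1 or 4 or any one of the 3 mercuric chloride rats, and 0.0719 with a floor of 0.5. Of 7 tested targets and feedback genes of NF-kappaB, the transcription factor behind many cytokine genes, 4 were higher in ischemia rats and 0 lower. Over all genes the shares were 9.16% and 5.19%. Rela, its p65 subunit, stood at 2.75, 2.61, 2.55 and 2.93 in ischemia rats, against 1.83, 1.8 and 1.86 in mercuric chloride rats and 1.61, 1.49 and 1.61 in normal rats, without overlap (0.56 ± 0.08, adjusted p 3.15e-05). Irf1, an interferon-related factor, differed by 0.82 ± 0.20 (adjusted p 0.00647). The NF-kappaB count was 2 without mercuric chloride rat 2.

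Genes of tubular injury, growth factors and matricellular proteins separated the injuries widely. Of 15 tested injury genes, 8 were higher in ischemia rats and 0 lower, against 9.16% and 5.19% of all genes (median difference 0.68). Of 22 tested EGF receptor ligands and matricellular genes, 10 were higher and 1 lower (median difference 0.41). Plaur and Ccn1 were counted in both lists. The 11 of the second list became 7 without mercuric chloride rat 2. Plaur, the urokinase receptor, stood at 2.18, 2.47, 2.41 and 2.59 in ischemia rats, against 0.371, 0.275 and 0.241 in mercuric chloride rats and 0.302, 0.213 and 0.244 in normal rats. Mercuric chloride rats overlapped normal rats and ischemia rats lay 3.05 ± 0.20 above them (8.28-fold, adjusted p 9.54e-11, limma), while a second, dim probe near the floor gave 0.35 and did not pass. Ccn1 (Cyr61), a matricellular protein that binds integrins, stood at 7.14, 5.8, 3.79 and 3.97 in ischemia rats, against 0.641, 0.756 and 0.462 in mercuric chloride rats and 1.14, 0.885 and 0.847 in normal rats (3.04 ± 0.27, 8.23-fold, adjusted p 1.52e-08). Ccn2 (connective tissue growth factor), its relative, stood at 33, 29.7, 26 and 26.8 in ischemia rats, against 3.35, 3.86 and 3.04 in mercuric chloride rats and 9.62, 13.4 and 13.8 in normal rats. Here the normal rats lay between the injuries with no overlap, and the difference between ischemia and mercuric chloride was 3.08 ± 0.26 (8.46-fold, adjusted p 6.09e-09). Over normal rats 1 to 3, Ccn2 was up by 1.25 in ischemia rats and changed by -1.84 in mercuric chloride rats. With all 5 normal rats of the study the values were 2.00 and -1.08, and the change in mercuric chloride rats no longer passed (adjusted p 0.072). The rats added there are normal rats 11 and 12, whose arrays lacked 47 probes that the arrays of the compared rats held. That pooled baseline thus joins arrays that differ in this respect.

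Annexin A1 and Lcn2 were higher in ischemia rats as well. Anxa1, an anti-inflammatory phospholipid-binding protein, stood at 67.8, 68.7, 63.8 and 75 in ischemia rats, against 22.2, 20 and 23.8 in mercuric chloride rats and 18.1, 17 and 21.3 in normal rats (1.65 ± 0.18, 3.13-fold, adjusted p 3.53e-07, limma). Lcn2 (NGAL), a siderophore-binding protein used as a urinary injury marker, stood at 0.99, 0.988, 1.38 and 1.73 in ischemia rats, against 0.475, 0.586 and 0.496 in mercuric chloride rats and 0.46, 0.382 and 0.449 in normal rats. Mercuric chloride rats lay just above normal rats, and the difference was 1.26 ± 0.22 (2.39-fold, adjusted p 0.000196). Havcr1 (Kim-1), another urinary marker, stood at 1.08, 0.669, 1.07 and 1.21 in ischemia rats, against 0.676, 0.621 and 1.2 in mercuric chloride rats and 0.411, 0.887 and 1.38 in normal rats. All 3 groups overlapped and the difference was 0.30 ± 0.39 (95% interval -0.49 to 1.10, adjusted p 0.708). Areg (amphiregulin), an EGF receptor ligand, stood at 0.921, 1.19, 0.774 and 1.76 in ischemia rats, against 0.906, 1.32 and 4.69 in mercuric chloride rats and 0.181, 0.175 and 0.283 in normal rats. Both injured groups overlapped above normal, with a difference of -0.68 ± 0.48 (adjusted p 0.407) that was 0.02 without mercuric chloride rat 3.

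The vasoactive peptides Edn1 and Adm were higher in ischemia rats. Of 21 tested genes of the renin-angiotensin system, sodium handling and vasoactive signals, 3 were higher in ischemia rats and 1 lower, against 9.16% and 5.19% of all genes, and the median difference was 0.13. Edn1 and Adm were also counted in the list of EGF receptor ligands and matricellular genes. Edn1 (endothelin-1), a constrictor of renal vessels, stood at 1.59, 1.31, 1.54 and 1.46 in ischemia rats, against 0.25, 0.273 and 0.189 in mercuric chloride rats and 0.369, 0.329 and 0.199 in normal rats. Both of its probes separated ischemia rats from mercuric chloride rats, by 2.65 ± 0.17 (6.29-fold, adjusted p 9.54e-11, limma) and 2.88. Adm (adrenomedullin), a dilator induced by low oxygen, stood at 2.12, 1.82, 2.63 and 2.37 in ischemia rats, against 0.661, 0.883 and 0.63 in mercuric chloride rats and 0.884, 0.801 and 0.734 in normal rats (1.63 ± 0.19, 3.09-fold, adjusted p 9.24e-07). Bdkrb2, the bradykinin B2 receptor, differed by 1.50 ± 0.24, and by 0.35 with a floor of 0.5 (adjusted p 0.0694). The lower gene was Npr1, the receptor of atrial natriuretic peptide, which stood at 1.62, 1.87, 2.07 and 1.92 in ischemia rats, against 2.97, 2.86 and 3.24 in mercuric chloride rats and 2.27, 2.23 and 2.43 in normal rats (-0.69 ± 0.12, adjusted p 0.000246).

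**Figure D4:**
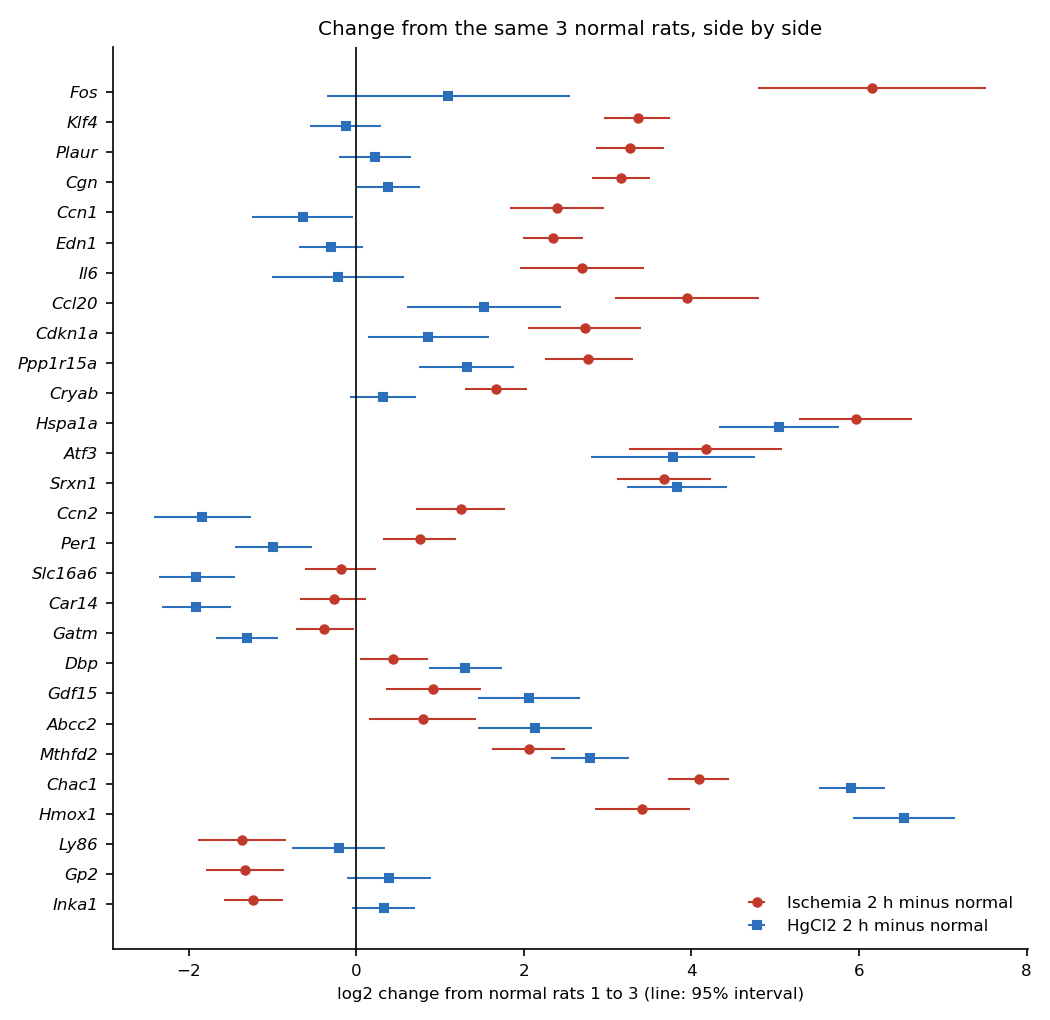
Log2 change from the same normal rats 1 to 3 of 28 genes, for ischemia rats (red circles) and mercuric chloride rats (blue squares), with 95% intervals; both changes of a gene share the normal rats. Fos lies at 6.16 after ischemia and 1.10 after mercuric chloride, Hmox1 at 3.41 and 6.54, and Ccn2 at 1.25 and -1.84.

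Several growth arrest genes were higher after ischemia. Of 12 tested p53 targets 5 were higher in ischemia rats and 0 lower, against 9.16% and 5.19% of all genes (median difference 0.26). Several of them also respond to other signals, and Btg2 was counted with the early factors as well. Btg2, an antiproliferative early gene, stood at 51, 29.1, 28.1 and 37.1 in ischemia rats, against 8.44, 5.87 and 6.41 in mercuric chloride rats and 3.47, 3.15 and 4.05 in normal rats (2.37 ± 0.46, 5.17-fold, adjusted p 0.000674, limma). Plk2, a polo-like kinase, differed by 2.27 ± 0.39 (4.82-fold, adjusted p 0.000213). Cdkn1a (p21), the inhibitor of cyclin-dependent kinases, stood at 13.4, 12.2, 11.8 and 12 in ischemia rats, against 3.82, 4.34 and 2.34 in mercuric chloride rats and 2.51, 2.08 and 1.25 in normal rats. Mercuric chloride rats overlapped normal rats and ischemia rats stood apart, with differences of 1.87 ± 0.33 (adjusted p 0.000243) and, in a second probe, 2.75. Gadd45a, a stress gene of growth arrest, differed by 0.99 ± 0.23 (adjusted p 0.00373). Among 15 tested apoptosis regulators, 2 were higher and 2 lower, and in place of these 4, 1 passed without mercuric chloride rat 1 and 2 without rat 3. Mcl1, a short-lived survival protein, stood at 5.79, 5.49, 4.49 and 5.62 in ischemia rats, against 1.66, 1.85 and 1.49 in mercuric chloride rats and 1.82, 1.75 and 1.6 in normal rats (1.68 ± 0.17, 3.21-fold, adjusted p 9.61e-08). Of 18 tested cell cycle genes, 2 were higher and 0 lower, or 1 without ischemia rat 2 or mercuric chloride rat 1 or 3, and 14 of the 18 lay at or below the array median in all 7 rats.

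Few genes of energy metabolism outside glucose and its control passed, at shares near or below those of all genes (9.16% higher and 5.19% lower). Of 31 tested hypoxia and glycolysis genes, 7 were higher in ischemia rats and 0 lower (median difference 0.21). Slc2a1, the basolateral glucose transporter GLUT1 and a target of hypoxia-inducible factor, stood at 5.48, 5.89, 5.16 and 7.43 in ischemia rats, against 2.28, 2.74 and 3 in mercuric chloride rats and 1.77, 2.3 and 2.51 in normal rats (1.16 ± 0.20, 2.23-fold, adjusted p 0.000198, limma). Hk2, the inducible hexokinase, stood at 0.238, 0.313, 0.361 and 0.276 in ischemia rats and at or next to the floor in the others, so its passed difference (adjusted p 4.03e-08) depends on the floor. Ankrd37, another hypoxia target, differed by 1.07 ± 0.18 (adjusted p 0.000132). Pdk4, which closes the pyruvate dehydrogenase step, stood at 1.38, 1.23, 2.05 and 1.5 in ischemia rats, against 0.258, 0.22 and 0.299 in mercuric chloride rats and 0.456, 0.272 and 0.388 in normal rats (2.56 ± 0.44, 5.89-fold, adjusted p 0.000186). Among 29 tested genes of fatty acid oxidation 2 were higher and 0 lower, or 1 without ischemia rat 2 or mercuric chloride rat 1. The larger was Ppargc1a (PGC-1alpha), the coactivator of mitochondrial biogenesis, at 3.98, 3.33, 2.46 and 2.64 in ischemia rats, against 0.82, 0.939 and 0.497 in mercuric chloride rats and 0.884, 0.846 and 0.602 in normal rats (2.07 ± 0.22, 4.19-fold, adjusted p 3.58e-07). Of 20 tested respiratory chain and ATP synthase genes, 1 was higher, and 0 passed without ischemia rat 1, 3 or 4 or mercuric chloride rat 1 or 2.

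Some glucocorticoid responsive and clock genes differed too, and the labels give neither the time of day nor the anaesthesia. Of 11 tested glucocorticoid responsive genes, Pdk4 and Lcn2 included, 5 were higher in ischemia rats and 0 lower (median difference 0.54). Over all genes the shares were 9.16% and 5.19%. Cebpd, a C/EBP factor of the acute phase, stood at 5.33, 6.15, 8.98 and 7.45 in ischemia rats, against 1.57, 1.55 and 1.48 in mercuric chloride rats and 2.16, 1.69 and 1.96 in normal rats (2.16 ± 0.27, 4.47-fold, adjusted p 2.41e-06, limma). Tsc22d3 (GILZ), an anti-inflammatory leucine zipper protein, differed by 1.19 ± 0.20 (adjusted p 0.000176). Of 10 tested clock genes 3 were higher and 1 lower. Per1, a clock repressor that also answers glucocorticoids, stood at 2.75, 2.52, 2.02 and 3.43 in ischemia rats, against 0.765, 0.796 and 0.793 in mercuric chloride rats and 1.83, 1.45 and 1.43 in normal rats. The normal rats lay between the injuries, which differed by 1.75 ± 0.21 (3.35-fold, adjusted p 1.63e-06). Per2 stood at 0.676, 0.715, 0.649 and 0.808 in ischemia rats, against 0.217, 0.215 and 0.198 in mercuric chloride rats (1.76 ± 0.21), and with a floor of 0.5 this difference became 0.51 and still passed. Dbp, a clock output factor, stood at 5.9, 5.22, 6.89 and 6.71 in ischemia rats, against 12.7, 11 and 9.93 in mercuric chloride rats and 4.96, 4.58 and 4.07 in normal rats (-0.86 ± 0.20, adjusted p 0.00327).

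Transport genes of the proximal tubule differed between the injuries in few cases, and some of these were low after mercuric chloride. Of 40 tested proximal tubule genes, 5 were higher in ischemia rats and 1 lower (median difference 0.12, against 0.04 over all genes), a share near that of all genes. Against normal rats, 2 of the 40 fell in ischemia rats (background 7.37% of probes) and 10 fell in mercuric chloride rats (background 4.61%). The summed level of the list was 902 to 1039 in ischemia rats, 870 to 908 in mercuric chloride rats and 977 to 1382 in normal rats. Slc16a6, a monocarboxylate transporter, stood at 1.66, 1.69, 1.42 and 1.41 in ischemia rats, against 0.51, 0.493 and 0.401 in mercuric chloride rats and 2.11, 1.75 and 1.44 in normal rats. Ischemia rats overlapped normal rats and mercuric chloride rats were low, with a difference of 1.72 ± 0.21 (3.3-fold, adjusted p 1.52e-06, limma). Car14, a membrane carbonic anhydrase, stood at 1.2, 1.05, 0.955 and 0.939 in ischemia rats, against 0.344, 0.358 and 0.3 in mercuric chloride rats and 1.62, 1.31 and 0.909 in normal rats (1.63 ± 0.19, 3.1-fold, adjusted p 1.11e-06). Gatm, the first enzyme of creatine synthesis, stood at 52.2, 50.4, 56.9 and 46.3 in ischemia rats, against 25, 34.8 and 23 in mercuric chloride rats and 78.9, 58.8 and 63.8 in normal rats (0.92 ± 0.17, adjusted p 0.000352), while a second probe near the floor gave 0.15. Over normal rats, Slc16a6 and Car14 both changed by -1.91 and Gatm by -1.30 in mercuric chloride rats. The lower gene was Slc17a1, a sodium phosphate transporter, at -0.89 ± 0.19, a call that ended with a floor of 0.5 (-0.05, adjusted p 0.675) or with the aMSH rats as the ischemia group (-0.60, adjusted p 0.0532).

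Of 18 tested genes of the later segments (Henle's loop, the distal tubule and the collecting duct), 3 were higher in ischemia rats and 0 lower (median difference -0.13). Over all genes the shares were 9.16% and 5.19%. In this list 1 passed without any one of the 4 ischemia rats or without mercuric chloride rat 1 or 3. The summed level was 131 to 171 in ischemia rats, 171 to 191 in mercuric chloride rats and 135 to 192 in normal rats. Calb1, a member, was measured in only 2 rats of each of these groups, so the sums of the other rats lack it. Umod, given above, was lower in every ischemia rat than in any mercuric chloride rat. Slc26a4 (pendrin), the chloride and bicarbonate exchanger of intercalated cells, stood at 1.21, 1.18, 1.46 and 1.57 in ischemia rats, against 0.594, 0.832 and 0.509 in mercuric chloride rats and 1.83, 1.72 and 1.1 in normal rats. Ischemia rats lay among the normal rats and mercuric chloride rats below both, with a difference of 1.09 ± 0.22 (2.13-fold, adjusted p 0.000993, limma), which was 0.66 with the aMSH rats as the ischemia group (adjusted p 0.0743).

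Some genes of leukocytes were lower in ischemia rats and others higher. In whole kidney RNA, fewer cells of a type and less RNA per cell cannot be told apart. Of 24 tested leukocyte genes 2 were higher and 5 lower in ischemia rats, against 9.16% and 5.19% of all genes (median difference -0.13). The summed level was 90.9 to 110 in ischemia rats, 97.2 to 106 in mercuric chloride rats and 104 to 117 in normal rats. With a rat left out the count that passed was 4 to 6 in place of 7, with 4 without mercuric chloride rat 1 or 3. Ly86 (MD-1), carried by macrophages and B cells, stood at 0.903, 0.777, 0.831 and 0.834 in ischemia rats, against 2.19, 1.8 and 1.63 in mercuric chloride rats and 2.26, 2.17 and 2.03 in normal rats. Ischemia rats were low and the other groups overlapped, with a difference of -1.15 ± 0.25 (2.22-fold lower in ischemia, adjusted p 0.00227, limma). Csf1r, the macrophage growth factor receptor, stood at 1.24, 1.19, 0.991 and 1.16 in ischemia rats, against 1.91, 1.69 and 2.12 in mercuric chloride rats and 1.75, 1.43 and 1.82 in normal rats (-0.73 ± 0.11, adjusted p 3.35e-05). Cd53, a leukocyte tetraspanin, differed by -0.56 ± 0.13 (adjusted p 0.00407). Among the higher genes was Cd14, the coreceptor for bacterial endotoxin, at 2.67, 2.15, 2 and 3.56 in ischemia rats, against 1.04, 0.943 and 1.05 in mercuric chloride rats and 1.31, 0.765 and 1.31 in normal rats (1.32 ± 0.24, 2.5-fold, adjusted p 0.000339). S100a9 (calgranulin B), a neutrophil protein, stood at 2.31, 2.88, 2.8 and 2.4 in ischemia rats, against 1.34, 1.2 and 0.932 in mercuric chloride rats and 0.29, 0.188 and 0.207 in normal rats. It rose over normal rats in both injuries, by 3.53 and 2.35, and their difference of 1.18 ± 0.43 did not pass (adjusted p 0.0648). In limma fitted to these 3 groups alone it was 1.18 and passed (adjusted p 0.00126). With rats of the same number as a block as well it was 1.21 (adjusted p 0.00714).

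Endothelial genes moved both ways while their summed level hardly differed. Of 13 tested genes, 4 were higher in ischemia rats and 3 lower, against 9.16% and 5.19% of all genes. The sum was 26.7 to 29.8 in ischemia rats, 29.2 to 31.3 in mercuric chloride rats and 27.1 to 30.3 in normal rats. Edn1 and Selp, described above, were among the higher ones. Thbd (thrombomodulin), an anticoagulant receptor, stood at 1.54, 1.58, 2.06 and 2.1 in ischemia rats, against 0.7, 0.854 and 0.994 in mercuric chloride rats and 0.837, 0.927 and 1.09 in normal rats (1.10 ± 0.15, 2.14-fold, adjusted p 1.41e-05, limma). Tek (Tie2), the angiopoietin receptor, stood at 2.44, 2.42, 1.97 and 2.45 in ischemia rats, against 5.42, 4.61 and 3.84 in mercuric chloride rats and 4.91, 3.07 and 2.88 in normal rats (-0.98 ± 0.24, adjusted p 0.00569), and its second probe gave -0.46 and did not pass (adjusted p 0.0911).

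Among 14 tested genes of fibroblasts and smooth muscle, 4 were higher and 0 lower, against 9.16% and 5.19% of all genes. The median difference of the list was 0.10, against 0.04 over all genes. Its summed level was 170 to 197 in ischemia rats, 145 to 147 in mercuric chloride rats and 123 to 149 in normal rats. This sum weighs bright genes such as Actg2 most. Myh11, the smooth muscle myosin heavy chain, was lower in ischemia rats by -0.39 ± 0.20, which did not pass (adjusted p 0.23, limma). Actg2, the smooth muscle gamma actin, stood at 48, 46.5, 40.8 and 52.8 in ischemia rats, against 23.6, 22.7 and 23.4 in mercuric chloride rats and 27.9, 28.9 and 31.1 in normal rats, with no overlap (1.01 ± 0.11, 2.02-fold, adjusted p 3.16e-07, limma). Csrp1 and Tagln, actin-binding proteins of smooth muscle, differed by 1.08 ± 0.13 and 0.99 ± 0.16, and Vim (vimentin) by 0.68 ± 0.14. Of 8 tested glomerular genes 1 was higher and 1 lower (median difference -0.23). When any one rat other than ischemia rat 2 or 4 was left out 0 or 1 passed, and 1 passed with rats of the same number as a block. The summed level was 8.95 to 11.2 in ischemia rats, 11.3 to 14.8 in mercuric chloride rats and 8.46 to 12.5 in normal rats. The lower gene was Pdgfrb (-0.36 ± 0.12, adjusted p 0.0429, limma), whose second probe, near the floor, gave -0.03. Col4a4, a chain of the glomerular basement membrane, was 0.88 ± 0.22 higher, a call lost without mercuric chloride rat 3 (0.74, adjusted p 0.0549). Of 9 tested adrenal and fat genes 0 passed, and their sums were 5.65 to 12.2 in ischemia rats, 6.27 to 10 in mercuric chloride rats and 5.47 to 7.71 in normal rats. Of 3 tested red blood cell genes 1 was higher, or 0 without ischemia rat 4 or mercuric chloride rat 1 or 2, with sums of 12.3 to 15.6 in ischemia rats, 8.55 to 17.2 in mercuric chloride rats and 9.48 to 14.8 in normal rats.

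**Figure D5:**
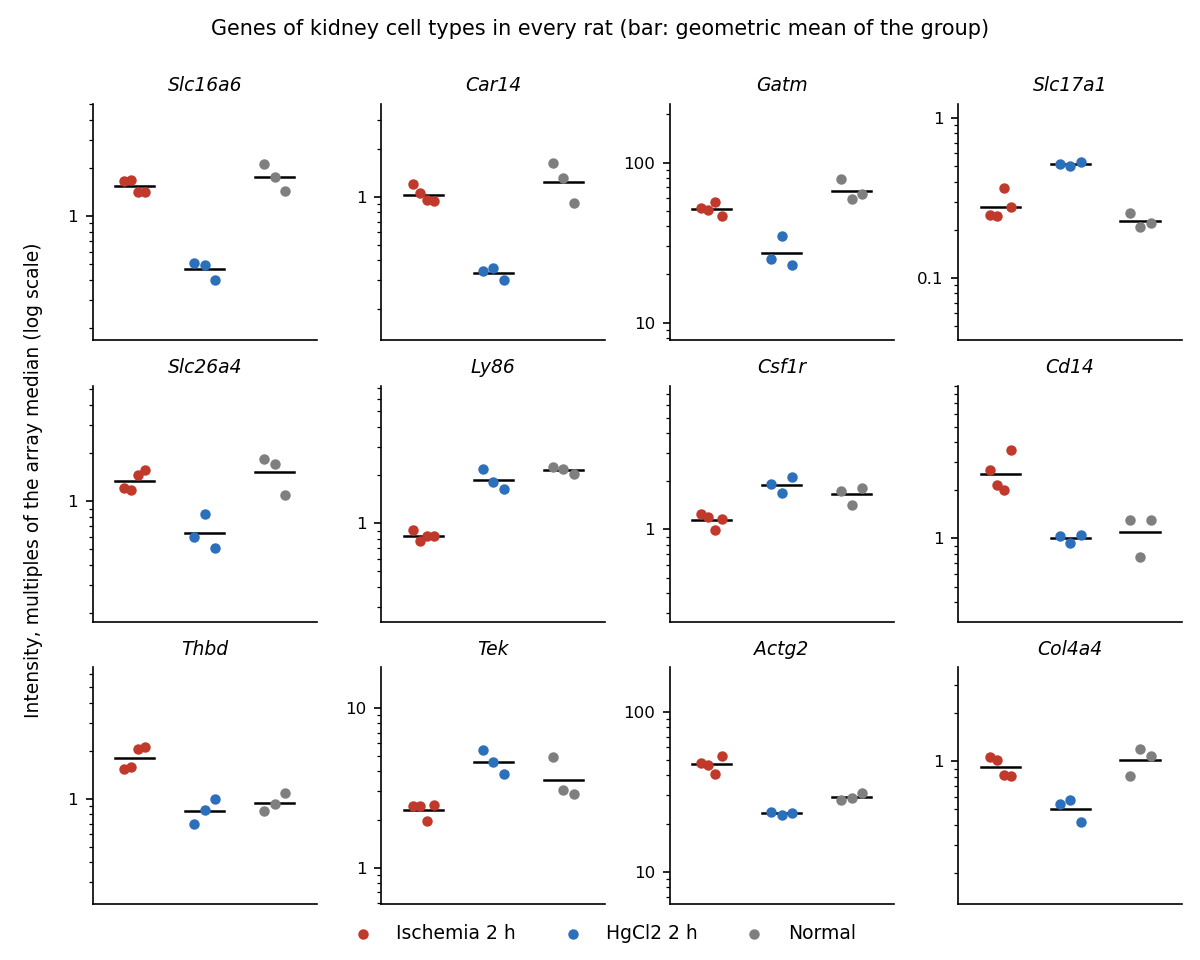
Levels of 12 genes of kidney cell types in every rat, in multiples of the array median on a log scale, with ischemia rats (red, n = 4), mercuric chloride rats (blue, n = 3) and normal rats (grey, n = 3) from left to right; bars are geometric means. Slc16a6, Car14 and Gatm are low in mercuric chloride rats, Ly86 (0.777 to 0.903) and Csf1r are low in ischemia rats, and Cd14, Thbd and Actg2 are high in ischemia rats.

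Several of the widest differences lay outside these pathways. Csrp3 (muscle LIM protein), known from heart and skeletal muscle, stood at 1.1, 1.26, 1.51 and 1.16 in ischemia rats and at the floor in all mercuric chloride and normal rats, so it was at least 12.5-fold higher than in mercuric chloride rats (adjusted p 1.43e-09, limma). Its level was 0.639 to 1.23 in the ischemia rats studied at 8 h. Itpkc, a kinase of inositol trisphosphate, stood at 3.42, 3.47, 2.77 and 3.1 in ischemia rats, against 0.368, 0.349 and 0.336 in mercuric chloride rats and 0.329, 0.325 and 0.323 in normal rats (3.18 ± 0.16, 9.06-fold, adjusted p 6.86e-13). Cgn (cingulin), a tight junction protein, stood at 1.29, 1.29, 1.3 and 1.68 in ischemia rats, against 0.16, 0.185 and 0.274 in mercuric chloride rats and 0.158, 0.143 and 0.162 in normal rats (2.78 ± 0.17, 6.87-fold, adjusted p 2.73e-11). Ischemia rats also stood apart from the normal rats in all 3 genes, while separation from mercuric chloride rats was a condition for naming them. Glycam1, a mucin that carries selectin ligands, was missing in ischemia rat 3 and stood at 0.7, 1.24 and 7.36 in the other ischemia rats, against 0.129, 0.157 and 0.18 in mercuric chloride rats (3.59 ± 0.52, adjusted p 3.25e-05). Rufy1, an endosomal trafficking protein, stood at 1.09, 1.01, 0.902 and 0.922 in ischemia rats, 1.06 to 1.27 in normal rats and at the floor in all mercuric chloride rats. It was thus at least 9.77-fold higher in ischemia rats (adjusted p 0.0157), a call that did not pass without mercuric chloride rat 1 (0.0502) or rat 3 (0.0501), and 1 rat each of cisplatin, 8 h mercuric chloride, 8 h ischemia, aMSH and volume depletion also lay at the floor.

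Among the genes that were lower in ischemia rats, Ugt2b7, a glucuronosyltransferase, stood at 0.145, 0.168, 0.411 and 0.191 in ischemia rats, against 1.29, 2.21 and 1.72 in mercuric chloride rats and 0.459, 0.108 and 0.321 in normal rats. Mercuric chloride rats alone stood apart (-3.02 ± 0.59, 8.11-fold lower in ischemia, adjusted p 0.000796, limma). Ddit4l, an inhibitor of mTOR, differed by -1.70 ± 0.40, Alx1, a homeobox factor, by -1.69 ± 0.25, and Tsku (tsukushi), a secreted proteoglycan, by -1.51 ± 0.29, each with the mercuric chloride rats highest. In another set the ischemia rats lay below normal rats. Gp2, a membrane glycoprotein related to uromodulin, stood at 1.52, 0.688, 1.16 and 1.06 in ischemia rats, against 2.9, 3.87 and 3.82 in mercuric chloride rats and 2.51, 2.93 and 2.6 in normal rats (-1.72 ± 0.23, 3.28-fold lower, adjusted p 7.43e-06). Clec4a, a lectin receptor of myeloid cells, stood at 0.109, 0.1, 0.128 and 0.1 in ischemia rats, against 0.398, 0.326 and 0.409 in mercuric chloride rats and 0.374, 0.493 and 0.391 in normal rats (-1.79 ± 0.30, adjusted p 0.000138). Clec4a3, a related lectin gene, differed by -1.72 ± 0.33, with the normal rats spread across both groups (0.777 to 3.1). Evi2a and Inka1, both near the floor in ischemia rats, differed by -1.68 and -1.56, and by -0.02 each with a floor of 0.5.

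In the 3 ischemia rats given aMSH the leading genes had levels that can be set beside those of the ischemia rats above. Fos stood at 66.4, 79.5 and 74.9, Klf4 at 7.21, 5.45 and 9.05, Plaur at 3.3, 2.39 and 2.21 and Hmox1 at 13.4, 14.7 and 7.84. Il6 stood at 1.97, 3.07 and 1.12, against 0.667 to 2.32 in ischemia rats without aMSH. Selp stood at 1.04, 1.36 and 0.868, against 0.224 to 1.6, so the ranges overlapped in both genes. Put in place of the ischemia rats, the aMSH rats differed from the mercuric chloride rats at 1035 probes.

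Of 653 genes with several tested probes, 154 had a probe that passed, and in 38 of these the probes differed in sign. Fnbp1, a membrane-curving adaptor named after its values were seen, was the 1 gene with probes that passed in both directions.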

How the data were processed

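Kidney RNA was hybridised to 36 single-colour CodeLink arrays of 9911 probes from 31 rats in 9 treatments. The deposited values are of an unusual kind (unit: other). The log2 of each deposited value was an intensity divided by the array median: array medians of this log2 were 0.9992 to 1.0, and 99.386% of 353337 values fell on steps of 0.0001 (tolerance 1e-06). The sources used here name no scanner software or background correction, and no label states the log base. A deposited 0.5 (0.97% of values) was read as missing. Levels were divided by the array median again, floored at 0.1 and taken to log2. Arrays of 1 rat were averaged (5 rats had a second array). The column of sham rat 3 was displaced by 2 rows and was moved back.

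limma 3.58.1 (R 4.3.3) was fitted to all 31 rats with group means, and p-values were Benjamini-Hochberg adjusted over all tested probes. A probe was tested if it was measured in at least 2 rats of each compared group and stood above the floor in 3 or more. The fit was tested on simulated data. Of the probes, 7229 had 1 gene symbol and 21 several. A gene is represented by its brightest tested probe. The genes named are the 12 widest differences each way without overlap, up to 5 called and 2 other members of each of 29 lists, and a short set of known injury genes. Members and lists were chosen with earlier results of these data known. Promoters were matched by symbol.

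Same-numbered rats of both injuries deviated together from their group means (r = 0.186, 0.319 and 0.382 over 9363 probes), so a fit with the number as a block is given where it changes a call. That fit held only the 2 groups and normal rats 1 to 3, so its calls reflect the choice of rats as well as the block. Ischemia rat 1 correlated best with mercuric chloride rat 2, though, and with normal rat 1 at r = -0.042. Other alternatives were the normalization, the floor, the filter, the rats that entered the fit, and each rat left out. The number of arrays limits the precision.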

Additional observations from a re-analysis of the deposited data

Results flagged for a closer look

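Among the 4 ischemia rats, 10 of 165 named genes (6.06%) had 1 rat whose gap to the nearest of the others exceeded, as a share of the range of the group, the 95% critical value of Dixon's test for 4 samples. Chance flags about 1 gene in 20. Rat 4 was the highest for Bdkrb2 at 0.849 (gap 0.952 of the range), for Cgn at 1.68 (0.959), for Vim at 12.3 (0.894) and for Zfp36 at 23.7 (0.849). Rat 4 was the lowest for Car2 at 11.2 (0.873). Rat 3 was the highest for Alx1 at 0.815 (0.873) and for Csnk1e at 0.329 (0.869), and the lowest for Tek at 1.97 (0.941). Rat 1 was the highest for Tsc22d3 at 3.35 (0.872) and the lowest for Creld2 at 5.34 (0.854). Rat 2 was flagged for 0 genes. The cause of these gaps was not tested.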

How the results depend on the processing

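The count of 1427 probes was 2794 with array weights (1424 higher and 1370 lower, and 198 list members in place of 130) and, in a setting chosen after seeing the data, 2552 without normal rat 1, ischemia 8 h rat 3 and volume depletion rat 1 (1325 higher and 1227 lower). With the 7 rats alone 1006 probes were lower. The replicate block, fitted to the 2 groups and normal rats 1 to 3, gave 1590 probes, and the same rats without a block gave 1606. With any one of the 7 rats left out the count was 999 to 1255, with 545 to 691 higher and 438 to 564 lower, and 101 to 122 list members. For 95 of the genes described in the results, the difference was followed through 20 settings. Among these, differences that turned sign were those of Srxn1 (0.09 without ischemia rat 3 and 0.04 without mercuric chloride rat 2, within a range of -0.32 to 0.09 over the rats left out), Areg (0.02 without mercuric chloride rat 3, within -1.17 to 0.02) and Cxcl2 (-0.00 with a floor of 0.5, which lies above its levels). Of these 95 genes, 85 passed in the main fit, and 70 of the 85 passed in all 20 settings. Another 6 of the 85 were not tested in every setting, since a higher floor or stricter filter left them out. With the aMSH rats as the ischemia group, Egr1 (1.61, adjusted p 0.0924), Mthfd2 (-0.55, adjusted p 0.131), Il1b (-0.49, adjusted p 0.316) and Rufy1 (adjusted p 0.148) no longer passed in limma. A floor of 0.5 shortened differences of dim genes by construction, to 1.10 for Il6, 1.56 for Edn1, 1.60 for Pdk4, 1.05 for Car14, 1.47 for Cgn, 1.89 for Glycam1, 0.83 for Dusp6 and -1.76 for Ugt2b7. Besides those given with the results, the block changed no other call among these 95 genes. The cause of the other shifts was not tested. Dim probes limit the low genes, since 8.43% to 12.35% of values per array lay at the floor.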
